A study of Mus musculus with 27 samples.

Results

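The genes described here carry the names of proteins of the cytosolic ribosome, read in mouse macrophages. They were taken by name from the array files, as every probe whose gene name has the form of a ribosomal protein of the large subunit (Rpl) or the small subunit (Rps), with Rpsa and the stalk proteins Rplp0, Rplp1 and Rplp2, and without the Rps6 kinases. This gave 84 gene names on 188 probes. Of these, 82 genes were detected, which means marked by the scanner software as well above background on 2 or more arrays of a condition, out of 21938 genes detected in all. They divide by name into 50 of the large and 32 of the small subunit, and 2 of them, Rpl22p and Rps4y2, are pseudogenes in RefSeq, which stay in all counts. The other 2, Rpl3l and Rpl10l, are relatives of Rpl3 and Rpl10 known from muscle and testis, and passed on no condition. The 82 genes were above background on every one of the arrays, so the choice of detected members did not depend on a group in which they were high.

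Bone marrow-derived macrophages were grown for 7 days in L929-conditioned medium from female C57BL/6 mice of 6 to 8 weeks. Naive cells received no ligand. Acute cells received 4 h of LPS (100 ng/ml, a ligand of TLR4), CpG DNA (TLR9), Pam3CSK4 (100 ng/ml, TLR2) or Poly(I:C) (10 μg/ml, TLR3), and re-stimulated cells had 24 h of a ligand, a wash, a rest of 1 h and then 4 h of the same ligand. No group carries a genetic change. The sources give more than 1 dose for CpG, and they differ on whether a replicate was 1 mouse or a pool of mice. RNA from each of the 9 groups was hybridized in 3 replicates to 1-colour Agilent arrays, and 25 of the 27 arrays have deposited normalized values, because the authors set 2 aside for quality: replicate 3 of LPS re-stimulated and replicate 2 of acute Pam3CSK4 cells. Values are log2 intensities unless another scale is named, a change is a difference of group means on that scale, and a level is not compared between probes.

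Each ribosome joins a small subunit, which reads the messenger RNA, to a large subunit, which forms the peptide bond, and most of the proteins of a subunit are present in it once, while Rplp1 and Rplp2 form dimers in the stalk. The messenger RNAs of these proteins are among the most abundant of a growing cell. Most begin with a run of pyrimidines at the 5′ end, the 5′TOP, through which mTOR and the protein LARP1 control their translation and stability together. In macrophages some members have described roles outside the ribosome, such as RPL13A in the silencing of inflammatory transcripts and RPS3 in NF-κB binding to DNA.

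The arrays were not all alike before any ribosomal protein was read. Outside acute LPS, the arrays of 1 replicate number shared a slide, and these 3 slides were read on 1 scan day. The acute LPS arrays lay on 3 other slides, read on 2 other scan days with an earlier design file, so acute LPS and its slides cannot be told apart in any comparison that uses them. Spots above background made up 43.1% to 55.0% of each of 24 of the 25 arrays used and 74.9% of naive replicate 3. The 2 arrays set aside had 92.4% (LPS re-stimulated) and 99.9% (acute Pam3CSK4) of spots above background. No spot was saturated. Csf1r, the receptor for the macrophage growth factor, read 16.96 or more on the 24 arrays on which it was the brightest of 9 macrophage markers tested, and on the other one, LPS acute replicate 1, the macrophage marker Emr1 was brightest at 17.05. Cd163, the other marker on that list, did not enter the test.

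Neutrophil transcripts differed by replicate. All 9 neutrophil markers were tested, and none was at 0. Summed over the list, their level was 16.17 and 16.75 on naive replicates 1 and 2 against 12.35 on naive replicate 3, and 11.72, 12.21 and 12.31 on the acute LPS arrays. S100a9 was the brightest member on most arrays with a high sum, at 15.63 and 16.20 on the first 2 naive replicates. The LPS re-stimulated arrays read 15.89 and 15.90, with S100a9 at 15.10 and 14.75. Against naive cells on the same slides single markers differed in both directions. Mpo read 9.82 and 10.60 in naive cells and 6.44 and 3.22 after LPS re-stimulation, and Ly6g 8.91 and 9.60 against 11.67 and 12.77. Acute CpG read 17.33, 18.10 and 12.66 and re-stimulated CpG 15.82, 16.32 and 15.02. Pam3CSK4 read 17.41 and 12.80 when acute and between 15.76 and 16.06 when re-stimulated. Poly(I:C) read 16.73, 17.77 and 12.47 when acute and 16.15, 17.07 and 12.88 when re-stimulated. After CpG and Pam3CSK4 re-stimulation the sum of replicate 3 was carried by S100a8, at 14.83 and 15.66, while S100a9 read 5.65 and 5.93 there and the median of the list 3.88 and 3.81, against 8.96 to 10.62 on replicates 1 and 2. Replicate 3 thus held less of most of these markers in every group that has one apart from acute LPS, where the 3 arrays were alike, and the part of this signal in the changes below was not tested. Summed, the 6 inflammatory markers also read higher on naive replicate 3, at 15.85 against 13.44 and 13.79 on replicates 1 and 2. After LPS re-stimulation the sums were 17.31 and 17.47. Il1b alone did not share this, at 4.70, 6.71 and 6.64 on naive replicates 1, 2 and 3. The part of this signal in the changes was not tested either. In a bulk sample fewer cells of a type and less RNA per cell cannot be told apart.

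Ribosomal protein probes were read at high intensity. Over the 82 genes the median level of an array lay between 16.19 and 16.60 on 23 arrays, and at 15.90 and 15.82 on the LPS re-stimulated arrays. The naive arrays read 16.47, 16.45 and 16.57, and the pooled SD of this median among replicates was 0.11. Re-stimulated Poly(I:C) cells had the next lowest group mean, with arrays at 16.21, 16.22 and 16.21. The LPS re-stimulated arrays did not overlap with those of any other group.

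**Figure D1:**
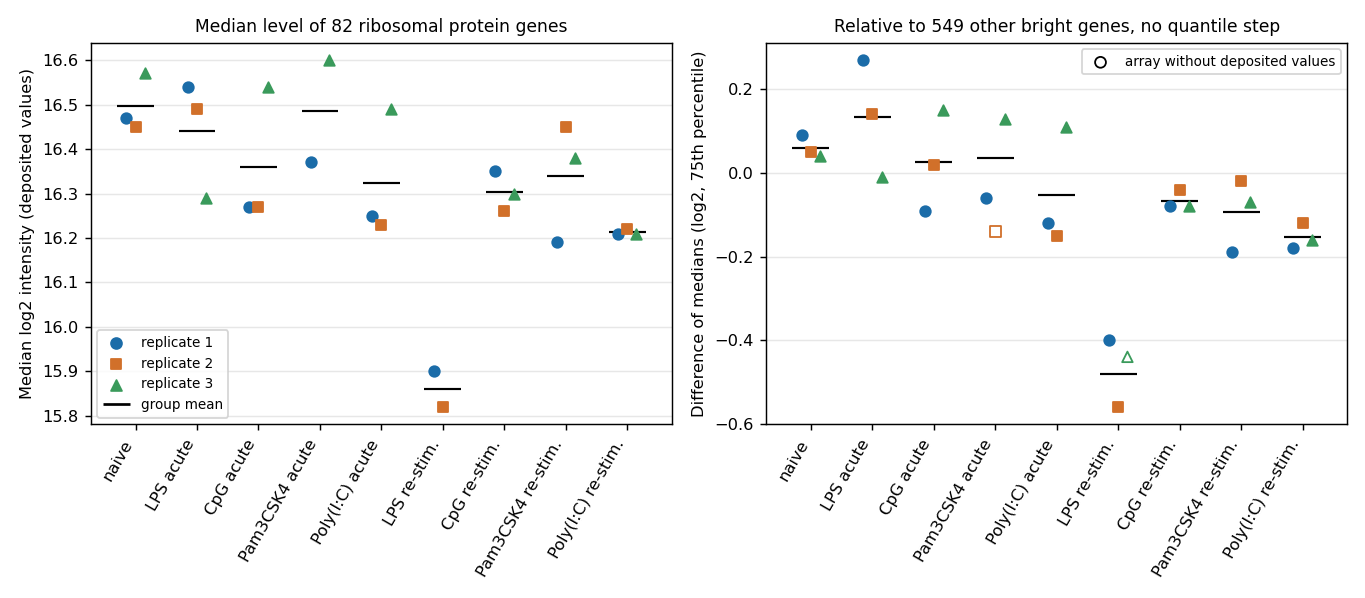
Left, the median log2 intensity of the 82 ribosomal protein genes on each of 25 arrays (deposited values); right, the median of the same genes minus that of 549 other bright genes on arrays scaled to their 75th percentile, in log2 units. Symbols are replicates, bars are means of the arrays used, and open symbols are the 2 arrays without deposited values. The LPS re-stimulated arrays read 15.90 and 15.82 at left and lie lowest in both panels, including the array set aside (-0.44).

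How far this low level was a property of the ribosomal proteins depended on the scaling. Quantile normalization holds the whole distribution fixed and can shift the brightest probes together. The comparison was therefore also made with the 549 other genes whose mean level was above 15.65, the lower quartile of the ribosomal protein genes. On the deposited values the ribosomal protein median minus that of these bright genes was -0.48 and -0.54 on the LPS re-stimulated arrays, and between -0.26 and 0.16 on the other 23. With each array scaled only to its 75th percentile it was -0.40 and -0.56, with -0.44 on the replicate that was set aside, and between -0.19 and 0.27 elsewhere. Relative to equally bright genes the LPS re-stimulated arrays were therefore lowest under both scalings. The absolute size was not stable, as given with each comparison below.

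Intensity depends on the probe as well as on the transcript, so the range is given as a description of the probes only. It ran from Rpl39l, a relative of Rpl39 known from the testis, at a mean of 6.653 and Rpl7l1 at 9.34 to Rplp0 at 18.02 and Rps14 at 18.05. An F test over the 9 groups was passed by 28 of the 82 genes, against 50.6% of all genes tested, and by 16 and 11 without LPS re-stimulated replicate 1 and 2. Rps21 and Rpl10a had the largest F (adjusted p from limma 5.63e-05 and 0.000216). Rpl39l and Rpl27 had the smallest (adjusted p from limma 0.956 and 0.736), and Rpl39l read between 4.94 and 8.82. It was highest on replicate 3 in every group that has one apart from acute LPS, where the arrays read 7.24, 5.64 and 6.14.

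Acute stimulation changed few of these genes. A call is an adjusted p under 0.05 in 1 limma fit of all 9 groups. Counts under other settings show only how far a count moved. They are given without the share of all genes called under that setting, unless one is printed. After acute LPS 1 gene rose and 5 fell, where 16.9% of all genes rose and 19.7% fell, and the median change was -0.05 (all genes -0.04). Under 75th-percentile scaling the split turned to 8 higher and 0 lower with a median of 0.24. After acute CpG 0 rose and 0 fell (all genes 7.28% and 9.38%). At an unadjusted p under 0.05, 1 was higher and 3 lower, where 2732 and 3620 of 21938 genes were. After acute Pam3CSK4 0 rose and 0 fell (all genes 2.73% and 2.82%), with 1 and 0 unadjusted (all genes 1937 and 2171). After acute Poly(I:C) 0 rose and 0 fell (all genes 7.07% and 7.46%), with 0 and 2 unadjusted (all genes 2484 and 3252). Their medians were -0.14, -0.06 and -0.12, and turned to 0.27, 0.18 and 0.14 under 75th-percentile scaling, with 3 genes then called higher after CpG. Blocking on replicate gave 1 call after CpG and 1 after Pam3CSK4, and the latter also had 1 without acute LPS replicate 3. The 6 calls after acute LPS became 1 without naive replicate 1 or acute LPS replicate 2, and 2 without naive replicate 2 or 3, acute LPS replicate 3 or CpG re-stimulated replicate 1. They became 3 without either LPS re-stimulated array, acute CpG replicate 1 or 2, CpG re-stimulated replicate 2 or 3, Pam3CSK4 re-stimulated replicate 3, Poly(I:C) acute replicate 2 or Poly(I:C) re-stimulated replicate 1.

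The gene that rose after acute LPS was Rps21, a small subunit protein, read by a single probe (mm9 chr2:179993084-179993143). Naive cells read 13.38, 13.65 and 13.73, and acute LPS cells 14.67, 15.03 and 14.30. The groups did not overlap, and the change was 1.08 (SE 0.22, adjusted p = 0.000902 in limma, 2.12-fold). Every array outside acute LPS read 13.73 or less, and the re-stimulated LPS arrays read 12.47 and 12.68, the lowest group mean, beside 12.68, 13.03 and 13.01 after CpG re-stimulation. This made the fall from acute to re-stimulated LPS -2.09 (SE 0.25, adjusted p = 1.49e-05), and both comparisons use the acute LPS slides, which cannot be told apart from the treatment. The 2 largest falls after acute LPS were in Rps4y2 (-0.55) and Rps27l (-0.53), a relative of Rps27 induced by p53. Rps27l read 15.19, 15.11 and 15.14 in naive and 14.60, 14.59 and 14.65 in acute LPS cells, while Rps4y2 overlapped between the groups.

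Ribosomal protein transcripts were lower after LPS re-stimulation than in naive cells. The counts use every naive array, of which replicate 3 lies on a slide with no LPS re-stimulated array in use. Of the 82 genes, 49 fell and 2 rose, where 9.16% of all genes fell and 8.74% rose. The share of equally bright genes called is not given, so these counts are set against all genes only. The median change was -0.58 (all genes -0.01, the 549 other bright genes -0.36), and 78 of the 82 estimates were below 0. Both subunits took part: 18 of 32 small subunit genes fell and 31 of 50 large subunit genes, with medians of -0.56 and -0.58. On slide 1 the median was -0.50 and on slide 2 -0.60, with 78 of 82 genes lower on each, where 54.5% and 51.9% of all genes were lower. Of 184 probes, 176 were lower and 96 were called lower, 2 called higher. Among the 56 genes with several probes, all probes of 53 were lower.

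The number of calls depended on the fit and on single arrays, and the absolute size on the scaling. With 75th-percentile scaling 2 genes fell and 3 rose, with a median of -0.12. A fit of these 2 groups alone, with 2 against 3 arrays, called 0 genes in limma, with 2 higher and 51 lower at an unadjusted p under 0.05, and 25 were called with no filter on dim probes. All 27 arrays gave 7, all lower. The count was 7 without LPS re-stimulated replicate 2, 26 without its replicate 1 and 32 without naive replicate 3. The distance to the other bright genes moved less: -0.22 on the deposited values, with 68 of 82 genes below the bright median, and -0.23 with 75th-percentile scaling, with 70 of 82 below it.

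**Figure D2:**
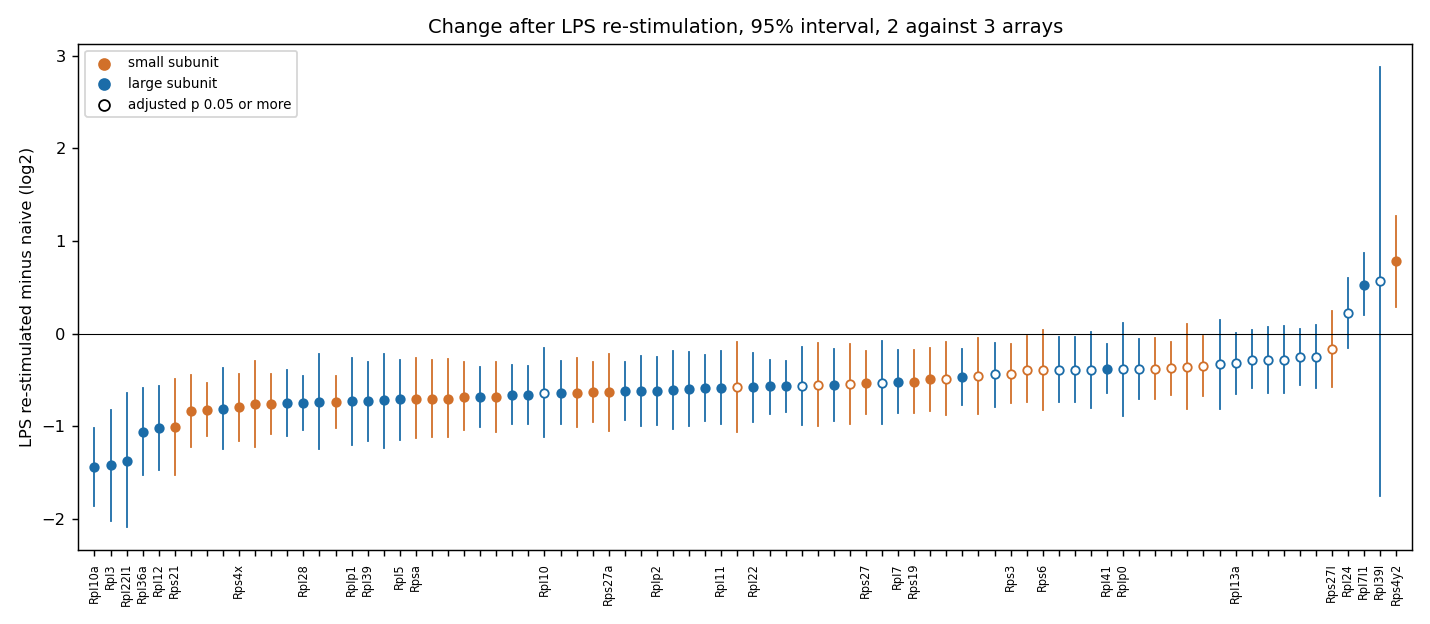
The change from naive to LPS re-stimulated cells (log2, deposited values) of each of the 82 genes, in order of size, with 95% intervals from limma (2 against 3 arrays) and names under some genes. Filled points passed the adjusted threshold; the 49 lower ones run from Rpl10a at -1.44 to Rpl41 at -0.38, and the 2 higher ones are Rpl7l1 and Rps4y2.

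The largest fall was in Rpl10a, a protein at the large subunit's L1 stalk, where used transfer RNA leaves. Naive cells read 16.97, 16.84 and 16.68 and LPS re-stimulated cells 15.86 and 14.93. The groups did not overlap, but the re-stimulated arrays were 0.66 apart as an SD. The change was -1.44 (SE 0.20, 95% interval -1.86 to -1.02, adjusted p = 0.000145 in limma, 2.71-fold lower). It was -1.09 with 75th-percentile scaling (adjusted p = 0.00441) and lost its call only in the fit of the 2 groups alone (adjusted p = 0.0847), among the settings tried. The gene has 2 probes in a row on mm9 chromosome 17, shown by their first 30 bases because both gave the fall.
Rpl10a brightest probe, chr17:28467917-28467976, plus strand: ccatgggcaagccccagcgtctgtattagg
Rpl10a other probe, chr17:28467854-28467913, plus strand: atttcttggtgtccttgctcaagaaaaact
The other probe changed by -1.68.

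Next was Rpl3, which lies near the peptidyl transferase centre. Naive cells read 16.06, 15.98 and 16.24, LPS re-stimulated cells 15.21 and 14.14, and the change was -1.42 (SE 0.29, adjusted p = 0.00224 in limma). Here too replicate 2 was the lower array, and without it the change was -0.89 and not called. The array files place the brightest probe on chromosome 5, while RefSeq has the gene on chromosome 15, where the other probe lies. Both are shown because a ribosomal protein gene has many processed copies in the genome, which a probe can also read.
Rpl3 brightest probe, chr5:10559558-10559617, plus strand: tccaggaccactttgtccagatggtggggt
Rpl3 other probe, chr15:79908489-79908772, minus strand: actctttgtaagtccttgctggtccagacc
The probe at the gene itself changed by -1.44. In all, the probes used for 74 genes lay on the gene's own chromosome, and those 74 gave 42 falls and 2 rises with a median of -0.57. The other 8 genes were Rpl28, Rpl3, Rpl36, Rpl37a, Rpl38, Rps27, Rps29 and Rps4x. Only the chromosome was matched, so a probe among the 74 can still lie away from its gene. The brightest Rps2 probe, at chr17:42864841-42864900, lies far from its other probe, at chr17:24857583-24857642.

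Rpl22l1, a relative of Rpl22 that Rpl22 itself represses, read 14.38, 14.50 and 14.28 in naive cells against 13.64 and 12.40, a change of -1.37 (SE 0.35, adjusted p = 0.0106 in limma). Rpl36a changed by -1.06, from 14.47, 14.69 and 14.84 to 13.66 and 13.56. Rpl12, of the base of the large subunit's stalk, changed by -1.02, from 16.47, 16.42 and 16.64 to 15.62 and 15.37. In these 3 genes every re-stimulated array was below every naive array. Without LPS re-stimulated replicate 2 Rpl22l1 changed by -0.75 and was not called. With 75th-percentile scaling Rpl22l1 changed by -0.95 and was not called (adjusted p = 0.115 in limma).

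The 2 rises were in relatives of core members. Rps4y2, named Rps4l and given as a transcribed pseudogene in RefSeq, read 9.30, 9.16 and 9.03 in naive cells and 9.97 and 9.93 after LPS re-stimulation, a change of 0.78 (SE 0.23, adjusted p = 0.0277 in limma). Rpl7l1, a relative of Rpl7 that works in the nucleolus in making the large subunit, read 8.95, 9.17 and 9.11 against 9.51 and 9.71, a change of 0.53 (SE 0.16, adjusted p = 0.0279). Neither group pair overlapped. On all 27 arrays, where the median of all genes was -0.21, Rpl7l1 changed by -0.06 and Rps4y2 by 0.57, both without a call. Both rises were called under 75th-percentile scaling, where Rpl24 was called higher too (0.74, against 0.22 and no call on the deposited values).

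**Figure D3:**
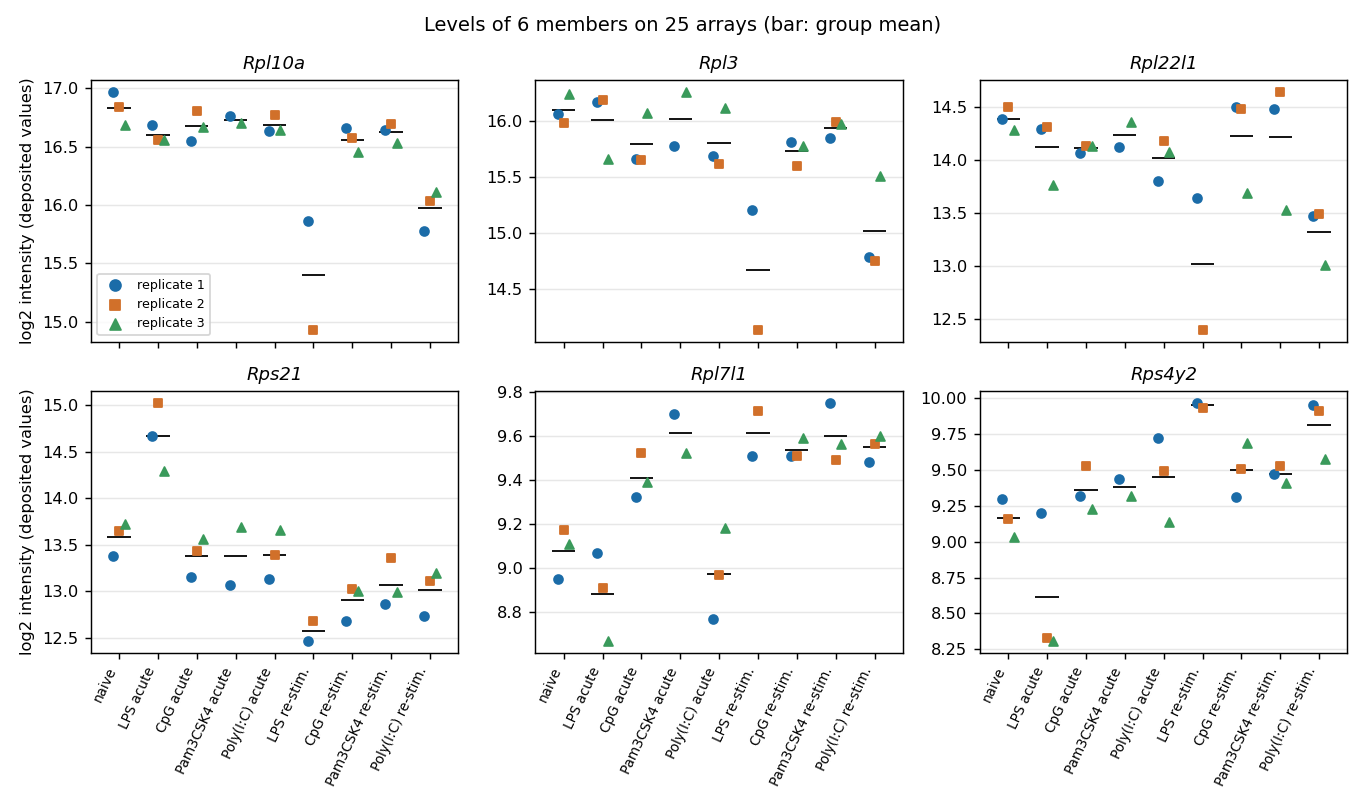
Log2 intensity of 6 members on each of the 25 arrays by group, with symbols for replicates and bars for group means. Rpl10a, Rpl3 and Rpl22l1 are lowest on LPS re-stimulated replicate 2 (14.93, 14.14 and 12.40), Rps21 is highest in acute LPS, and Rpl7l1 and Rps4y2 are higher after LPS and Poly(I:C) re-stimulation than in naive cells.

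Members with described roles were read one group at a time. Of the stalk proteins, which recruit translation factors, Rplp1 fell by 0.73 and Rplp2 by 0.62 after LPS re-stimulation against naive cells, and Rplp0 changed by -0.38 without a call. Rplp1 read 17.03, 16.95 and 17.35 in naive and 16.40 and 16.36 in re-stimulated cells. Rpl5 and Rpl11, which with 5S RNA bind the p53 regulator MDM2, fell by 0.71 and 0.59. Of 5 members with described roles in immunity or cell growth outside the ribosome, 3 fell, a share like that of the whole family: Rpsa, also a laminin receptor, by 0.70, Rpl22 by 0.58, and Rps19, which can leave cells and bind the C5a receptor, by 0.52. Rps3 (-0.43) and Rpl13a (-0.32) were not called. Rps6, the target of the S6 kinases, changed by -0.39 without a call. Rps27a, made as a fusion with ubiquitin, fell by 0.63. Each member was read at its brightest probe, and the call depended on the probe in some. The other probes of Rpsa (-0.49, -0.42 and 0.20) and Rps27a (-0.39 and -0.48) were not called. The other probes of Rpl11 (-0.55 and -0.69) and Rpl22 (-1.18) were called lower. A further Rps3 probe was called lower (-0.49), and the remaining one was not (-0.39). Of subunit genes that the naming rule does not take, Gnb2l1 (-0.54), Fau (-0.29) and Rpl36al (-0.29) were not called.

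Related genes did not all move together. Rpl22 fell at both of its probes (-0.58 at the brightest, -1.18 at the other), and Rpl22l1 fell too (-1.37). Rpl7 fell by 0.52 while Rpl7l1 rose, and Rps4x fell by 0.79 while Rps4y2 rose. Rps27 fell by 0.53 and Rps27l changed by -0.17 without a call. Rpl39 fell by 0.73 and Rpl39l changed by 0.57 with an SE of 1.10. Rpl10 changed by -0.64 without a call at its brightest probe, while another of its probes was called lower (-0.50). The other Rpl7 probes (-0.48, -0.50 and -0.49) were not called, and the other Rps4x probe was (-0.75). These differences between relatives were not tested. Their probes are distinct, as the Rpl22 and Rpl7 pairs show by the first 30 bases of the brightest probe of each gene.
Rpl22: ggaggaagacgaggattaggacacattggt
Rpl22l1: cagagtctgaggactaattggcctctgctt
Rpl7: gtcacccattgtatttttgtaatctggtca
Rpl7l1: aattatcaagtatcttcagagaagattatt

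Against acute LPS the re-stimulated arrays gave 48 falls and 2 rises among the 82 genes, where 15.1% of all genes fell and 17.4% rose. The median was -0.53 (all genes 0.01, other bright genes -0.24), and the share of those bright genes called is not given. After Rps21 the largest fall was in Rpl3 at -1.33, and Rps4y2 (1.33) and Rpl7l1 (0.73) rose again. With 75th-percentile scaling 25 fell and 2 rose with a median of -0.36. Without LPS re-stimulated replicate 2 the count of calls was 15, without its replicate 1 it was 31, and without acute LPS replicate 1 or 2 it was 32 or 33. This comparison shares its re-stimulated arrays with the one against naive cells and crosses slides, so treatment and slide cannot be told apart in it.

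**Figure D4:**
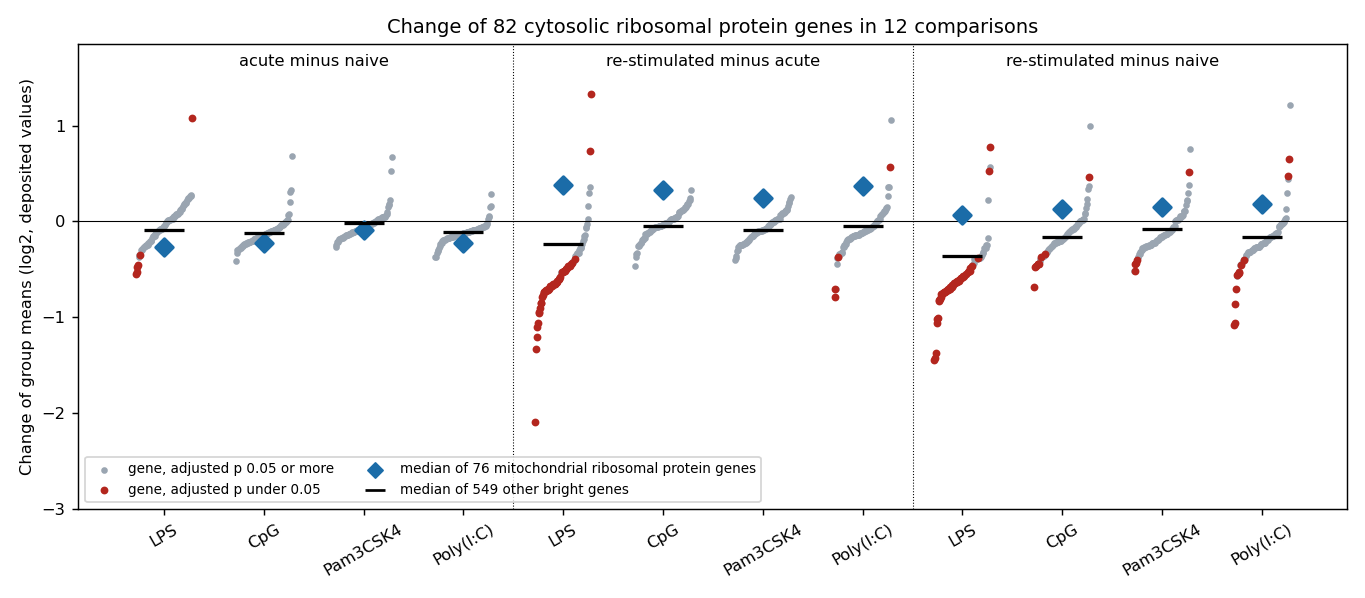
The change (log2, deposited values) of each of the 82 genes in 12 comparisons of 2 groups, sorted within a comparison, with called genes in red. Diamonds are the medians of 76 mitochondrial ribosomal protein genes and bars those of 549 other bright genes; after LPS re-stimulation the 82 genes have medians of -0.53 against acute and -0.58 against naive cells, below the bars at -0.24 and -0.36.

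The other 3 ligands gave smaller shifts on re-stimulation. Against acute cells CpG gave 0 rises and 0 falls (all genes 3.46% and 2.78%) and Pam3CSK4 0 rises and 0 falls (all genes 1.21% and 1.38%). At an unadjusted p under 0.05 CpG gave 0 and 4 (2669 and 2048 of 21938 genes) and Pam3CSK4 0 and 3 (1804 and 1847). Their medians were -0.04 and -0.09, and the latter turned to 0.12 under 75th-percentile scaling. Poly(I:C) gave 1 rise and 3 falls (all genes 7.51% and 5.64%) with a median of -0.12. The falls were in Rpl3 (-0.79), Rpl10a (-0.70) and Rps15 (-0.37), and the rise in Rpl7l1 (0.57). With 75th-percentile scaling 1 rose and 1 fell, and the count was 1 without replicate 1 or 2 of either Poly(I:C) group. It was 2 without Poly(I:C) acute replicate 3, acute LPS replicate 1 or 2, acute CpG replicate 1 or 2, any CpG re-stimulated array, either acute Pam3CSK4 array, or Pam3CSK4 re-stimulated replicate 1 or 2.

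Against naive cells Poly(I:C) re-stimulation gave 2 rises and 10 falls (all genes 10.0% and 10.9%), so the share of rises was below that of all genes and that of falls near it. The median was -0.24. On slides 1, 2 and 3 it was -0.28, -0.23 and -0.23, with 73, 64 and 69 of 82 genes lower. With the slide as a random block 3 rose and 21 fell, 24 in all, and 29.0% of all genes were then called in either direction. The falls were led by Rpl3 (-1.08), Rpl22l1 (-1.06), Rpl10a (-0.86) and Rpl36a (-0.70), which are also the 4 largest falls after LPS, measured against the same naive arrays. Rpl10a read 15.78, 16.03 and 16.11, below every array of the naive, acute, CpG and Pam3CSK4 groups. Rpl3 read 14.79, 14.75 and 15.51 and Rpl22l1 13.47, 13.49 and 13.01. Rps4y2 and Rpl7l1 rose, by 0.65 and 0.47. With 75th-percentile scaling 3 rose and 0 fell with a median of 0.02, and the count was 3 without Poly(I:C) re-stimulated replicate 2, 6 without its replicate 1, 6 without naive replicate 1 and 5 without naive replicate 2 or 3.

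CpG re-stimulation gave 1 rise and 8 falls against naive cells (all genes 10.3% and 11.1%) and Pam3CSK4 1 rise and 4 falls (all genes 8.28% and 9.25%), with medians of -0.18 and -0.15. On slides 1, 2 and 3 the medians were -0.13, -0.17 and -0.24 after CpG and -0.32, 0.01 and -0.11 after Pam3CSK4. With the slide as a random block 16 and 9 genes were called, against 29.4% and 26.4% of all genes. The falls were led by Rps21 (-0.68) and Rpl28 (-0.48) after CpG and by Rps27 (-0.52) after Pam3CSK4, and Rpl7l1 rose in both (0.46 and 0.52). The change of Rpl28 after CpG turned above 0 with 75th-percentile scaling. With 75th-percentile scaling the split was 8 higher and 0 lower after CpG (median 0.25) and 9 higher and 0 lower after Pam3CSK4 (median 0.30). The share of all genes called under that scaling is not given, so these counts are not set against it. The count after CpG was 1 without CpG re-stimulated replicate 3, 4 without its replicate 2 or naive replicate 1, and 5 without its replicate 1 or naive replicate 2 or 3. After Pam3CSK4 it was 1 without naive replicate 1 or Pam3CSK4 re-stimulated replicate 1, 2 without naive replicate 2 and 3 without naive replicate 3.

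The comparisons with naive cells share their naive arrays, so they are given side by side only. LPS re-stimulated cells, on slides 1 and 2, were also set directly against all 3 arrays of each other re-stimulated group. The median was -0.39 against CpG, -0.44 against Pam3CSK4 and -0.33 against Poly(I:C), with 79 of 82 genes lower in each, and the other bright genes had medians of -0.11, -0.18 and -0.19. With 75th-percentile scaling the medians were -0.40, -0.41 and -0.17, with the other bright genes at -0.10, -0.18 and -0.01. Within slides 1 and 2 the deposited values gave -0.38 and -0.38 against CpG, -0.17 and -0.53 against Pam3CSK4, and -0.23 and -0.36 against Poly(I:C), so the size against Pam3CSK4 differed most between the slides. The slide as a random block gave 1, 13 and 2 calls. These are given without the share of all genes called in that fit, as are the counts with the replicate block below. Against CpG 0 genes were higher and 0 lower after adjustment, where 0.00912% and 0.0137% of all genes were, and 0 were higher and 41 lower at an unadjusted p under 0.05, where 1013 and 1072 of 21938 genes were. Blocking on replicate gave 1 call, as did leaving out LPS re-stimulated replicate 1 or Poly(I:C) re-stimulated replicate 3. Against Pam3CSK4 0 were higher and 3 lower (all genes 0.775% and 0.324%): Rpl3 (-1.26), Rpl10a (-1.23) and Rpl38 (-0.73), and 6 calls with the block. Against Poly(I:C) 0 were higher and 1 lower (all genes 0.848% and 0.866%). Without LPS re-stimulated replicate 2 the counts against Pam3CSK4 and Poly(I:C) were 0. The count against Pam3CSK4 was 1 without its re-stimulated replicate 1 or 2, 5 without acute LPS replicate 3, 6 without acute CpG replicate 3 or either acute Pam3CSK4 array, and 7 without replicate 3 of either Poly(I:C) group. Against Poly(I:C) it was 0 without Poly(I:C) re-stimulated replicate 1 and 2 without its replicate 3.

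The difference between ligands in the step from acute to re-stimulated cells was tested as an interaction. It was lower for LPS than for CpG in 7 genes and higher in 1 (all genes 3.05% and 3.41%), lower than for Pam3CSK4 in 6 and higher in 1 (3.20% and 4.21%), and lower than for Poly(I:C) in 4 and higher in 0 (1.64% and 2.02%). In either direction 6.46%, 7.41% and 3.66% of all genes were called, and the shares of the 82 genes were near these or slightly above. The medians over the 82 genes were -0.51, -0.42 and -0.42 (all genes -0.02, 0.02 and 0.01), with 75, 75 and 77 genes below 0, and 41, 28 and 25 were lower at an unadjusted p under 0.05, where 2655, 2422 and 2103 of 21938 genes were. Rps21 led each, with differences of -1.62, -1.78 and -1.71, and Rps4y2 was the higher gene, at 1.19 and 1.24. Rpl10a differed by -1.09 from CpG and -1.10 from Pam3CSK4. All 3 tests use the acute LPS arrays. Between CpG and Pam3CSK4, CpG and Poly(I:C), and Pam3CSK4 and Poly(I:C) 0 of the 82 genes were called in limma, where 0.00456%, 0.0365% and 0.105% of all genes were. At an unadjusted p under 0.05 the counts higher and lower were 0 and 0, 1 and 1, and 1 and 1 for the 3 pairs. Over all genes those counts were 133 and 91, 1233 and 1148, and 1095 and 1431.

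**Figure D5:**
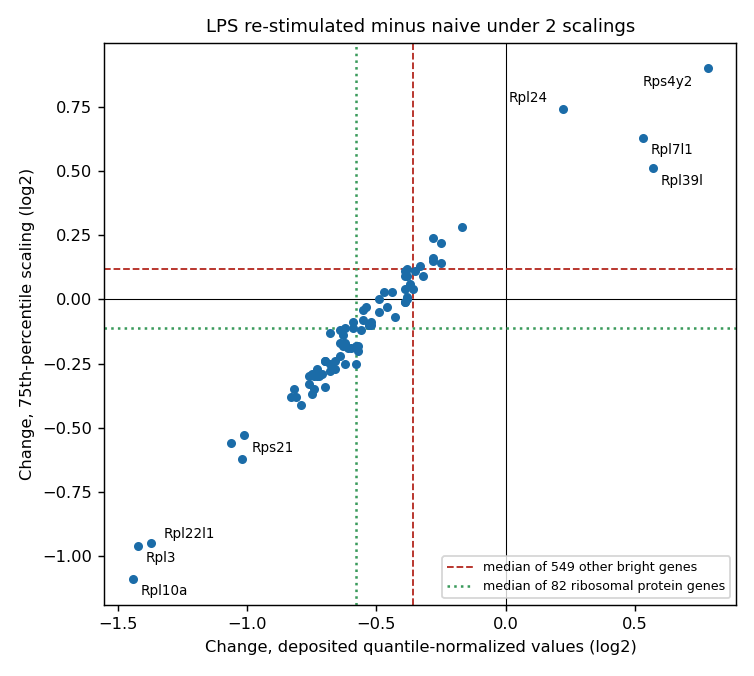
The change from naive to LPS re-stimulated cells of the 82 genes (log2) on the deposited quantile-normalized values and with each array scaled to its 75th percentile. Dotted lines are the medians of the 82 genes (-0.58 and -0.11, over the probes used for the deposited values; -0.12 where probes were chosen again) and dashed lines those of 549 other bright genes (-0.36 and 0.12), so the gap between them is alike under both scalings while the zero shifts.

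The mitochondrial ribosomal proteins, which are nuclear-encoded parts of a separate ribosome, gave other values in the same comparisons. Of 76 detected, 25 rose and 1 fell from acute to re-stimulated LPS (median 0.38; all genes 17.4% and 15.1%), and 6 rose and 1 fell against naive cells (median 0.07; all genes 8.74% and 9.16%), where the share of rises was near that of all genes. From acute to re-stimulated cells CpG gave 4 rises and 0 falls (median 0.33) and Pam3CSK4 1 rise and 0 falls (median 0.24), where 3.46% and 1.21% of all genes rose. From acute to re-stimulated Poly(I:C) 18 rose and 0 fell (median 0.37; 7.51% of all genes rose). After acute LPS 1 rose and 21 fell (median -0.27; 19.7% of all genes fell), and with 75th-percentile scaling that median was -0.06. With 75th-percentile scaling the medians were 0.50 and 0.35 for LPS re-stimulation against acute and naive cells, so the cytosolic genes were the lower of both kinds under each scaling. These genes are dimmer, and whether their level bears on the difference was not tested.

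To see whether falls went with the 5′TOP, the first base of each annotated start of a gene was read from RefSeq (GRCm38.p6). A gene counted if, at any of its annotated starts, that base is C and at least 4 C or T follow on the transcribed strand. This held for 13 of the 60 members with a promoter in the table (21.7%) and for 3.01% of 27025 genes. With a start anywhere within 5 bases of the annotated one it was 46.7% against 21.2%. The median change after LPS re-stimulation against naive cells was -0.59 for the 13 members and -0.55 for the other 47. Starts of 10 members named in the text are shown with 20 bases before and 20 from the first base, on the transcribed strand. Rps21 and Rpl10a have 2 annotated starts each, and a start with the run was shown where there was one. The first base is in capitals or, where it holds, the whole run of C and T from it. These 10 are not a sample of the family, and Rpl3 is not among the 60 members with a promoter.
Rpl10a, chr17:28328451-28328490, plus strand: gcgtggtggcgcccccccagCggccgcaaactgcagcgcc
Rpl22l1, chr3:28805488-28805527, plus strand: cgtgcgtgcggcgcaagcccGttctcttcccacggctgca
Rpl12, chr2:32961692-32961731, plus strand: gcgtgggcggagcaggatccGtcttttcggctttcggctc
Rpl36a, chrX:134585634-134585673, plus strand: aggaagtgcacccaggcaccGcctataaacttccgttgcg
Rps21, chr2:180257359-180257398, plus strand: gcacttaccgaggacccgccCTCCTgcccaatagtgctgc
Rpl28, chr7:4792945-4792984, plus strand: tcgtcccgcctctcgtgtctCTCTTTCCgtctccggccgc
Rpl38, chr11:114668560-114668599, plus strand: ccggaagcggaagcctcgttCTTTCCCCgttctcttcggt
Rplp2, chr7:141447631-141447670, plus strand: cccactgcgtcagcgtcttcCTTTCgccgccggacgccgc
Rps6, chr4:86857348-86857387, minus strand: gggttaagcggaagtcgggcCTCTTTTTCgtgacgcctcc
Rpl7l1, chr17:46782637-46782676, minus strand: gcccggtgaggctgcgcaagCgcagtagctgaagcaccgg
Of these 10, Rps21, Rpl28, Rpl38, Rplp2 and Rps6 had the run at the annotated base, and Rpl22l1 and Rpl12 had one within 5 bases of it. An annotated start can lie some bases from the one in use.

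Other translation genes were counted in the same comparison of LPS re-stimulated with naive cells, where 8.74% of all genes rose and 9.16% fell. Of 18 tested genes with a known 5′TOP that encode no ribosomal protein, 0 rose and 5 fell (median -0.37). The largest falls were in Nap1l1, a histone chaperone (-1.21), and Eef1a1, which brings aminoacyl-tRNA to the ribosome (-0.92), and the highest values were those of Snhg12 (0.33) and Hnrnpa1 (0.25), neither called. Of 30 initiation factors 2 rose, Eif6 (1.21), which keeps the large subunit from joining, and Eif4e (0.76), the cap-binding protein, and Eif3k fell (-0.59), with Eif3a at -0.47 and not called. Of 7 elongation and termination factors Eef1a2 fell (-1.77) and 0 rose, with Gspt1 at 0.65, Etf1 at 0.55 and Eif5a2 at -0.42, none of these called. Of 78 ribosome biogenesis genes 3 rose and 2 fell (median 0.03). Rcl1 (2.97) and Ubtf (1.72), a factor of RNA polymerase I, rose, Polr1d fell (-0.73), and Npm1 (-0.93) and Wdr12 (-0.78) were not called.

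The same comparison, where 8.74% of all genes rose and 9.16% fell, was used for growth and stress genes and qPCR references. Of 26 genes of mTOR signalling and growth control 2 rose and 5 fell. Sesn1, an inhibitor of mTORC1 (-3.96), and Eef2k, the kinase that slows elongation (-2.75), fell most, and Mxd1, an antagonist of MYC (1.51), and Rictor, a part of mTORC2 (0.91), rose, while Ddit4 (1.00) was not called. Of 11 integrated stress response genes 1 rose, Ppp1r15b (0.82), and 2 fell, the eIF2α kinases Eif2ak3 (-1.01) and Eif2ak4 (-0.87), while Chac1 (2.97) and Trib3 (1.46) were not called. Of 23 genes used as qPCR references, several of them ribosomal proteins, Pgk1 rose (1.36) and Gusb (-1.32), Rpl32 (-0.74) and Rps18 (-0.68) fell. Other changes, none called, were Hprt -1.35, Polr2a -0.72, Rpl4 -0.53, Rplp0 -0.38, Rps13 -0.37, Rps9 -0.35, Rpl13a -0.32, Rpl27 -0.28, Ppia -0.26, Rpl19 -0.25, Sdha -0.23, Actb 0.14, B2m 0.16, Tbp 0.24, Ywhaz 0.40, Tuba1a 0.41 and Gapdh 0.48.

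Markers of activation and of cell types were read in the same comparison, where 8.74% of all genes rose and 9.16% fell. All 6 inflammatory markers rose after LPS re-stimulation against naive cells, Il1b by 9.84 and Ptgs2 by 8.46 the most. Naive replicate 3 stood nearer to the re-stimulated arrays in some of them, with Tnf at 13.44 there and at most 9.53 on naive replicates 1 and 2, against 13.84 and 13.94 after LPS re-stimulation, Cxcl1 at 4.22, 5.73 and 9.10 in naive cells against 12.50 and 13.20, and Nfkbia at 13.37, 13.69 and 15.53 against 16.41 and 16.24. Of 7 interferon markers 5 rose, Irf7 by 3.98 and Rsad2 by 3.30 the most. Of 9 macrophage markers Cd14 rose (1.30), and Mrc1 (-4.72) and Mertk (-1.79) fell. No T cell marker of 3, B cell marker of 3 or erythroid marker of 2 was called in limma, with 0 at an unadjusted p under 0.05. The same held for the 9 neutrophil markers, but the naive replicates differed widely in them, with S100a9 at 15.63, 16.20 and 4.57, and the absence of a call does not show that these markers did not differ. Of 3 dendritic markers Zbtb46 was called (1.67), and of 2 fibroblast markers Dcn (4.23).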

How the data were processed

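RNA of bone marrow-derived macrophages was hybridized to 1-colour Agilent 8 × 60 K arrays. The authors deposited scanner intensities (62976 spots an array) and a table of log2 values made with RMA background correction and quantile normalization in limma, both named in the submitters' processing notes. That table covers 25 of 27 arrays, and the labels map all its columns, 0 left over. It was used as deposited. Scanner intensities gave detection and the alternatives. The number of arrays, not a count of reads, limits the precision.

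Of 55681 deposited probes, 30814 were well above background on 2 or more arrays of a group. They were fitted in 1 linear model of 9 groups (R 4.3.3, limma 3.58.1, data.table version 1.17.8, empirical Bayes, Benjamini-Hochberg over all probes), and every adjusted p is from limma. A gene was read at its probe with the highest mean, and called at an adjusted p under 0.05. Names are those of the later array design, in which 6580 probes are named otherwise than in the earlier one. Positions are mm9 as the files give them; first bases are RefSeq's, on GRCm38.p6. Figures used matplotlib 3.10.9.

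Named genes are the 2 largest called rises and falls of each comparison, members with described roles, paralogs with their core gene, those extreme in level or F, and for other lists counts with the 2 largest changes each way. Rpl24, Rpl36a, Rpl12 and further members named with a count were chosen after their values were seen. The members and lists were chosen with earlier results of these data known, and some lists share members. Alternatives were values made again from intensities (median difference from the deposited ones 0.0408), normexp with an offset of 50, 75th-percentile scaling, a replicate block, the slide as random block, a fit of 2 groups, no filter, saturated probes left out, the mean of a gene's probes, all 27 arrays and each array left out. The other bright genes, the comparisons between re-stimulated groups, probes on the gene's own chromosome, and naive replicate 3 left out with another setting were added after seeing the data. The fit was tested on simulated data. The results of some genes are not reported here, though counts and medians include them.

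Replicate numbers share a slide outside acute LPS. The main fit held no term for replicate or slide, so its p-values do not use the pairing, and the fits with a block are given as alternatives. The departures of arrays of 1 number from their own group's mean correlated at 0.26 to 0.32 (naive and acute CpG), 0.35 to 0.41 (naive and acute Poly(I:C)), 0.26 to 0.40 (both CpG groups), 0.27 to 0.44 (both Poly(I:C) groups), and 0.17 to 0.24 between naive cells and re-stimulated Pam3CSK4 and likewise Poly(I:C), so the numbers pair these samples. With naive cells re-stimulated CpG gave 0.10 to 0.26 and, over 2 pairs, acute Pam3CSK4 0.49 to 0.52, and both Pam3CSK4 groups gave 0.22. Between naive cells and acute LPS they correlated at 0.01 to 0.04 and between naive and re-stimulated LPS at 0.08. The methods describe a replicate as coming from a mouse of its own in 1 place and from an independently made pool of mice in another. On either reading p-values measure the spread between these samples only.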

Additional observations from a re-analysis of the deposited data

Results flagged for a closer look

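The step from acute to re-stimulated cells differed between ligands, by an interaction test in limma, for 8 ribosomal protein genes between LPS and CpG, 7 between LPS and Pam3CSK4 and 4 between LPS and Poly(I:C), where 6.46%, 7.41% and 3.66% of all genes differed. In either direction the shares of the 82 were thus near those of all genes or slightly above. Lower for LPS were 7, 6 and 4 of the 82, against 3.05%, 3.20% and 1.64% of all genes. Against CpG these included Rps21, Rpl10a, Rpl22p (a pseudogene in RefSeq), Rpl38, Rpl13 and Rps7, lower for LPS, and Rps4y2, higher. Against Pam3CSK4 they included Rps21, Rpl10a, Rpl36a, Rpl38 and Rpl22p, lower, and Rps4y2, higher. Against Poly(I:C) they included Rps21, Rps7 and Rpl22p, lower. Each of these differences contains the acute LPS arrays, whose slides and scan days cannot be told apart from the treatment. No group had the 4 samples that a search for an outlying sample needs.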

How the results depend on the processing

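The medians and the counts of called ribosomal protein genes kept their direction or stayed within 1.5 times in 999 of the recomputed values, moved in 157 and turned direction, all in medians, in 17. These counts are totals of both directions, so a split of higher and lower calls that turned is not among them. With 75th-percentile scaling such splits turned, for example after acute LPS and, against naive cells, after CpG and Pam3CSK4 re-stimulation. The fall after LPS re-stimulation against naive cells stayed below 0 in its median under every alternative run. With 75th-percentile scaling the medians were 0.24, 0.27, 0.18 and 0.14 after acute LPS, CpG, Pam3CSK4 and Poly(I:C), -0.36 and 0.12 from acute to re-stimulated LPS and Pam3CSK4, -0.12, 0.25, 0.30 and 0.02 from naive to re-stimulated LPS, CpG, Pam3CSK4 and Poly(I:C), and -0.17 between re-stimulated LPS and Poly(I:C). Its counts were 3 (acute CpG), 27 and 2 (LPS and Poly(I:C) against acute), 5, 9 and 3 (LPS, Pam3CSK4 and Poly(I:C) against naive), 0 (LPS against Poly(I:C)) and 9 (F test). With naive replicate 3 left out as well, the medians were 0.22, 0.25, 0.16, 0.13, -0.36, 0.12, -0.17, 0.25, 0.28, -0.00 and -0.17 in the same order, and the counts 1 (acute CpG), 26 and 2 (LPS and Poly(I:C) against acute), 3, 4 and 3 (LPS, CpG and Poly(I:C) against naive), 0 (LPS against Poly(I:C)) and 7 (F test). The cause was not tested.

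All 27 arrays gave counts of 1 (acute LPS), 16 and 0 (LPS and Poly(I:C) against acute), 7, 0, 0 and 1 (LPS, CpG, Pam3CSK4 and Poly(I:C) against naive), 0 and 0 (LPS against Pam3CSK4 and Poly(I:C)) and 3 (F test), with medians of -0.19 (acute Pam3CSK4), -0.46 (LPS against naive), -0.24 and -0.27 (LPS against CpG and Pam3CSK4), where the medians of all genes were -0.30, -0.21, -0.23 and -0.24. Fits of 2 groups, which hold fewer samples, gave 1, 17, 0, 0, 0, 0, 1, 0 and 0 for the same first 9 comparisons. With no filter on dim probes the counts were 1 (acute LPS), 2 (Poly(I:C) against acute), 25, 1, 0 and 4 against naive, 1 (LPS against Pam3CSK4) and 14 (F test). Normexp gave 1 in acute CpG and Pam3CSK4 and in CpG and Pam3CSK4 against acute, 9 (Pam3CSK4 against naive), 2, 11 and 5 (LPS against CpG, Pam3CSK4 and Poly(I:C)) and 49 (F test). The slide as random block gave 1 in acute CpG and Pam3CSK4, 16, 9 and 24 (CpG, Pam3CSK4 and Poly(I:C) against naive), and 1, 13 and 2 (LPS against CpG, Pam3CSK4 and Poly(I:C)). Values made again gave 2 (acute LPS) and 2 (LPS against Poly(I:C)), the mean of a gene's probes 5 and 2 (LPS against Pam3CSK4 and Poly(I:C)), and probes on the gene's own chromosome 1 (LPS against Pam3CSK4). Without naive replicate 3 and acute LPS the counts were 2 (Poly(I:C) against acute), 29, 4, 2 and 6 against naive and 14 (F test).

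With the replicate number as a block the counts were 1 for acute CpG, 1 for acute Pam3CSK4, 1 for LPS against CpG and 6 for LPS against Pam3CSK4, and the other counts stayed within 1.5 times. Leaving out each array gave 1 to 6 calls after acute LPS, 0 to 1 after acute Pam3CSK4 (median -0.17 to 0.07), 15 to 54 for LPS against acute, 1 to 4 for Poly(I:C) against acute, a median of -0.24 to 0.04 for Pam3CSK4 against acute, 7 to 52, 1 to 10, 1 to 7 and 3 to 12 for LPS, CpG, Pam3CSK4 and Poly(I:C) against naive, 0 to 1, 0 to 7 and 0 to 2 for LPS against CpG, Pam3CSK4 and Poly(I:C), and 11 to 31 in the F test. Of single genes, Rpl28 after CpG re-stimulation turned to 0.13 with 75th-percentile scaling (0.06 without naive replicate 3) and Rpl7l1 after LPS re-stimulation to -0.06 on all 27 arrays, above the median of all genes there. No spot was saturated, so leaving out saturated probes left out nothing. The number of arrays, 2 in 2 groups, limits the precision.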
